A study of Mus musculus with 20 samples.

Results

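The start of *Btrc* was taken as the viewpoint in Capture Hi-C maps of the *Lbx1*/*Fgf8* locus, and its contacts were followed along chromosome 19 in wild-type and rearranged mouse limb buds. *Btrc* (ENSMUSG00000025217.7) lies at 45438224-45607831 on the plus strand of chromosome 19 (mm9), and its annotated start falls in the 5 kb bin from 45435001 to 45440000. All bin pairs that join this bin to a bin between 44440001 and 46400000 were used. These are 389 of the 75855 bin pairs with a value in the wild-type and inversion maps, and 387 of 75078 in the duplication maps. The bin holds no other annotated protein-coding gene start, and its bin pairs were taken by position only. The viewpoint itself was chosen with earlier results of these data known. A wider viewpoint of 3 bins, from 45430001 to 45445000, served as a check where read pairs were few.

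*Btrc* encodes an F-box protein that recognises substrates for an SCF ubiquitin ligase, the enzyme complex that marks proteins for destruction. Its substrates include β-catenin and the inhibitors of NF-κB, so the protein acts in Wnt and NF-κB signalling. In the limb bud, *Fgf8* is made by the apical ectodermal ridge (AER), the strip of ectoderm that drives outgrowth of the limb, and several of the enhancers that control it there lie in the introns of the neighbouring gene *Fbxw4*. *Btrc* shares a topologically associating domain (TAD), a stretch of chromatin that contacts itself more than its surroundings, with *Lbx1*, a homeobox gene of migrating muscle precursors, and a boundary lies between this domain and that of *Fgf8*.

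Capture Hi-C ligates DNA ends that lie close together in fixed nuclei, enriches a chosen part of the genome with probes and counts the joined ends as read pairs. The study made it from micro-dissected forelimb and hindlimb buds of E11.5 embryos, to ask how rearrangements linked to split hand/foot malformation change contacts at this locus. The deposited maps are 6, 1 for each genotype, merged by the authors from 20 libraries: 3 biological replicates and 1 technical replicate each for the wild-type and for homozygous *Dup*, *Inv1* and *Inv2*, 3 biological replicates for heterozygous *Inv1*, and 1 library for heterozygous *Dup*. Replicates cannot be separated, so no spread between embryos and no test between genotypes could be had, and every interval given here is a 95% counting interval that covers sampling of read pairs only.

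Wild-type embryos are labelled c57bl6.J and all mutants G4 ESC, a 129sv/C57Bl6 hybrid embryonic stem cell line that was edited and aggregated into embryos, so strain and rearrangement cannot be told apart in any mutant over wild-type ratio. For *Dup* the sources differ: the embryos that the study used for single-cell RNA-seq are described as C57Bl6, so the background of the *Dup* maps is uncertain. *Dup* carries a tandem duplication of 541 kb that holds *Lbx1*, *Btrc*, the boundary and the AER enhancers in the introns of *Fbxw4* but not *Fgf8*. *Inv1* turns round 123 kb with the boundary and most of the enhancer region, and leaves *Btrc* in place. *Inv2* turns round 460 kb from between *Lbx1* and *Btrc* to between *Fbxw4* and *Fgf8*, so that *Btrc*, the boundary and the enhancers move as a block. The heterozygous maps carry 1 rearranged and 1 normal allele of *Dup* or *Inv1*. Whole limb buds were used, in which AER cells are a small part, and a contact made in fewer cells cannot be told apart from one made less often per cell.

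The breakpoints were set by guide RNAs, and their target sites fix where *Btrc* lies in each mutant. Each site matched chromosome 19 of mm9 once. The sites are printed below 5′ to 3′ on their own strand, with the protospacer in lower case and the PAM, the motif next to which Cas9 cuts, in capitals.
*Dup* centromeric: cccaggaatcgccgatgacaGGG
*Inv2* centromeric: ctgacatttagctgtgatcgGGG
*Inv1* centromeric: ggcctcaatacacctccatgGGG
*Inv1* telomeric: ggtgacaccagtattcctcgAGG
*Dup* and *Inv2* telomeric: ttaaatttctccaagataagAGG

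In this order the sites run along the chromosome from the centromeric side. The centromeric *Dup* site (chr19:45251631-45251650, minus strand) is intergenic between *Tlx1* and *Lbx1*, and the centromeric *Inv2* site (chr19:45332272-45332291, plus strand) is intergenic between *Lbx1* and *Btrc*. The centromeric *Inv1* site (chr19:45611034-45611053, plus strand) lies beyond the end of *Btrc*, between *Btrc* and *Poll*, so no breakpoint cuts *Btrc*. The telomeric *Inv1* site (chr19:45734085-45734104, plus strand) is in an intron of *Fbxw4*. The telomeric site shared by *Dup* and *Inv2* (chr19:45792723-45792742, minus strand) is intergenic between *Fbxw4* and *Fgf8*.

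Read in the rearranged order, these cuts change what lies near the *Btrc* start. In the wild-type, *Lbx1* starts 128 kb away on the centromeric side, the middle of the boundary interval is 194 kb away on the telomeric side, the middle of the enhancer region 274 kb and the *Fgf8* start 379 kb. In *Inv1* the middle of the enhancer region comes to 194 kb and that of the boundary interval goes to 274 kb, while *Lbx1* and *Fgf8* keep their distances. In *Inv2* the enhancers and the boundary keep theirs, but the *Fgf8* start comes to 131 kb and the *Lbx1* start goes to 376 kb. In *Dup* each *Btrc* copy meets each copy of the enhancer region, at distances from 267 to 815 kb over the 4 combinations.

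The enhancer region here is a stretch of 125 kb (45650001 to 45775000, 25 bins) around the AER enhancers, called the wide enhancer region. The AER enhancer interval is a narrower stretch of 50 kb inside it (45655001 to 45705000). The middle of this interval is 242 kb from the *Btrc* start in the wild-type and 227 kb in *Inv1*. It thus moves much less than the middle of the wide enhancer region. Both stretches, and the ends of TADs and boundaries, were read from pictures of the wild-type map and are uncertain by at least a bin.

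Depth set what could be seen. In the wild-type, 17345 read pairs joined the *Btrc* bin to bins 2 or more away, against 48141 in *Dup*, 31063 in *Inv1*, 32743 in *Inv2*, 10297 in heterozygous *Dup* and 20834 in heterozygous *Inv1*. The wild-type *Btrc* bin is thinly covered for its map: 48 of the 389 bins had fewer read pairs, the median bin had 26949, and the bin holds 8 sites of DpnII, the enzyme used, against a median of 12. A single wild-type bin pair of *Btrc* held 15 read pairs at the median, so regions of many bins carry the statements below. The 3-bin viewpoint held 63358 read pairs in the wild-type and between 38698 and 177869 in the mutants.

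In wild-type limb buds the *Btrc* start made most of its contacts inside its own domain. Contacts were scaled as virtual 4C, the profile of the viewpoint set to a total of 1000 without the viewpoint bin and the 5 kb on either side. The *Lbx1* TAD took 65.7% of the profile (Wilson interval 65.0 to 66.4%) and the *Fgf8* TAD 7.12% (6.75 to 7.51%). The boundary interval between them took 2.89%, the flank centromeric of the *Lbx1* TAD 14.5% and the flank telomeric of the *Fgf8* TAD 9.82%.

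The profile was also set against the average bin pair of equal distance in the map. Among the regions compared, those at the boundary interval stood highest with the single bin. With 3 bins this order did not hold, and the interval between *Lbx1* and *Btrc* and the telomeric boundary (1.08) came first. *Btrc* contacted the boundary interval next to the *Fgf8* TAD at 1.31 times the mean for its distance (1.198 to 1.44), and the 15 kb around the starts of *Poll*, a DNA repair polymerase, and *Dpcd*, a gene linked to cilia, which lie in that interval, at 1.32 times (1.16 to 1.49). The interval between *Lbx1* and *Btrc* stood at 1.26 (1.21 to 1.30) and the centromeric boundary at 1.15 (1.04 to 1.26). *Lbx1* itself was at the mean, with 1.02 (0.873 to 1.197), and so were the wide enhancer region with 0.984 (0.918 to 1.06) and *Fgf8* with 1.07 (0.847 to 1.36). The AER enhancer interval lay below the mean, at 0.892 (0.803 to 0.990). With 3 bins as viewpoint the boundary interval had 1.07 (1.02 to 1.12), *Poll* and *Dpcd* 1.00 (0.934 to 1.08), the interval between *Lbx1* and *Btrc* 1.08 (1.06 to 1.10), and the centromeric boundary 0.966 (0.917 to 1.02), which no longer stood above the mean. The wide enhancer region had 0.806 (0.776 to 0.837), the AER enhancer interval 0.744 (0.703 to 0.787) and *Lbx1* 0.846 (0.776 to 0.922), so how far these values stand from the mean depends on which bin represents the promoter.

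**Figure D1:**
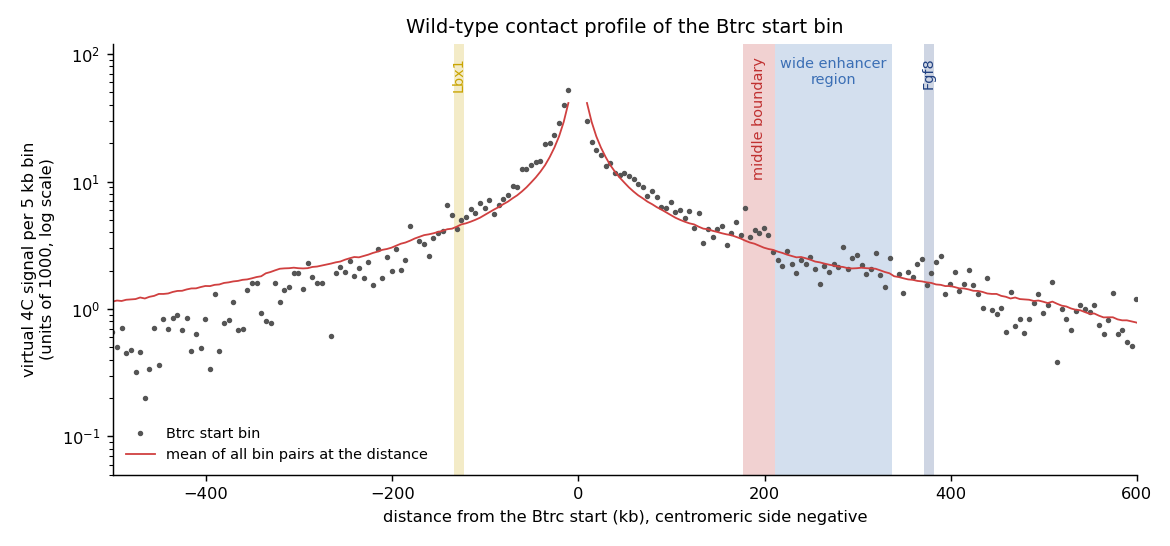
Wild-type virtual 4C profile of the Btrc start bin: points are single 5 kb bins (signal in units of 1000 for the whole profile, log scale) against the distance from the Btrc start in kb, and the red line is the mean of all bin pairs of the map at that distance. Points lie mostly above the line out to the middle boundary, where contact was 1.31 times the mean, near it across the wide enhancer region, and mostly below it on the far centromeric side.

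The profile was lopsided, and the side that was stronger changed with distance. Between 10 and 50 kb the centromeric side, upstream of the promoter, had 1.58 times the contact of the telomeric side (1.4998 to 1.67), which holds the gene body. From 50 to 150 kb the sides were close, with ratios of 1.04 and 1.09 and intervals that include 1. From 150 to 200 kb the centromeric side had 0.742 of the telomeric contact (0.633 to 0.870). Part of the telomeric side still lies in the *Lbx1* TAD there. Past the domain on both sides, the ratio was 0.777 from 200 to 250 kb (0.676 to 0.893) and 0.563 from 300 to 400 kb (0.495 to 0.641). Beyond its own domain *Btrc* thus contacted the *Fgf8* side more than the *Tlx1* side at equal distance, and the centromeric flank as a whole stood at 0.709 of the mean for its distance (0.678 to 0.742).

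The 5 bins at 50 kb or more with the highest contact for their distance all lay far telomeric, 634 to 944 kb from *Btrc*, and rested on 5 to 23 read pairs each. The first, 679 kb away (chr19:46115001-46120000), overlaps *Ldb1*, a cofactor of LIM-domain transcription factors, and *Pprc1*, a coactivator of genes for mitochondria, with 3.98 times the mean (2.47 to 6.40, 17 read pairs). The next ones overlap *Pprc1* (2.43), *Nfkb2* (2.21), which encodes an NF-κB subunit, *9130011E15Rik* (2.11) and *Gbf1* (2.09, on 5 read pairs with an interval that includes 1). They were picked as the highest of all bins, so their values are a description with no test.

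For the mutants, contact with *Btrc* is given as a ratio over the wild-type after a joint scaling of both maps, distance by distance, that does not use the rearranged interval. A ratio expected from distance alone stands beside it: the wild-type decay of contact read at the distances of the rearranged order, summed over copies in *Dup* and averaged with the normal allele in heterozygotes. It knows nothing of boundaries. Balancing gives each bin the same total, so the sum over the whole profile carries no result. Over the bins outside the rearrangement the ratio was 1.16 in *Dup* (1.12 to 1.21), 0.936 in *Inv1* (0.917 to 0.955), 1.03 in *Inv2* (0.991 to 1.07), 1.12 in heterozygous *Dup* (1.06 to 1.187) and 0.933 in heterozygous *Inv1* (0.912 to 0.954).

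*Btrc* contacted the *Fgf8* enhancers more in *Dup* and in *Inv1* than in the wild-type, whereas *Inv2* differed little, with an interval that includes 1 for the single bin and a small rise for 3 bins. Virtual 4C signal per bin is taken from the deposited maps, which for *Dup* and heterozygous *Dup* keep copy number, so there it is not on the scale of the ratios. The wide enhancer region had 2.24 in the wild-type, 3.05 in *Dup*, 3.26 in *Inv1*, 2.27 in *Inv2*, 3.16 in heterozygous *Dup* and 2.64 in heterozygous *Inv1*. The wild-type and *Inv2* were thus the lowest and lay close together, and the other 4 maps were above both. The scaled ratio was 1.37 in *Inv1* (1.27 to 1.49, 2523 read pairs against 927 in the wild-type), 1.25 in *Dup* (1.16 to 1.36, 3589 read pairs) and 0.997 in *Inv2* (0.915 to 1.09, 1787 read pairs). It was 1.27 in heterozygous *Dup* (1.15 to 1.41, 798 read pairs) and 1.07 in heterozygous *Inv1*, where the interval of 0.981 to 1.17 includes 1.

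**Figure D2:**
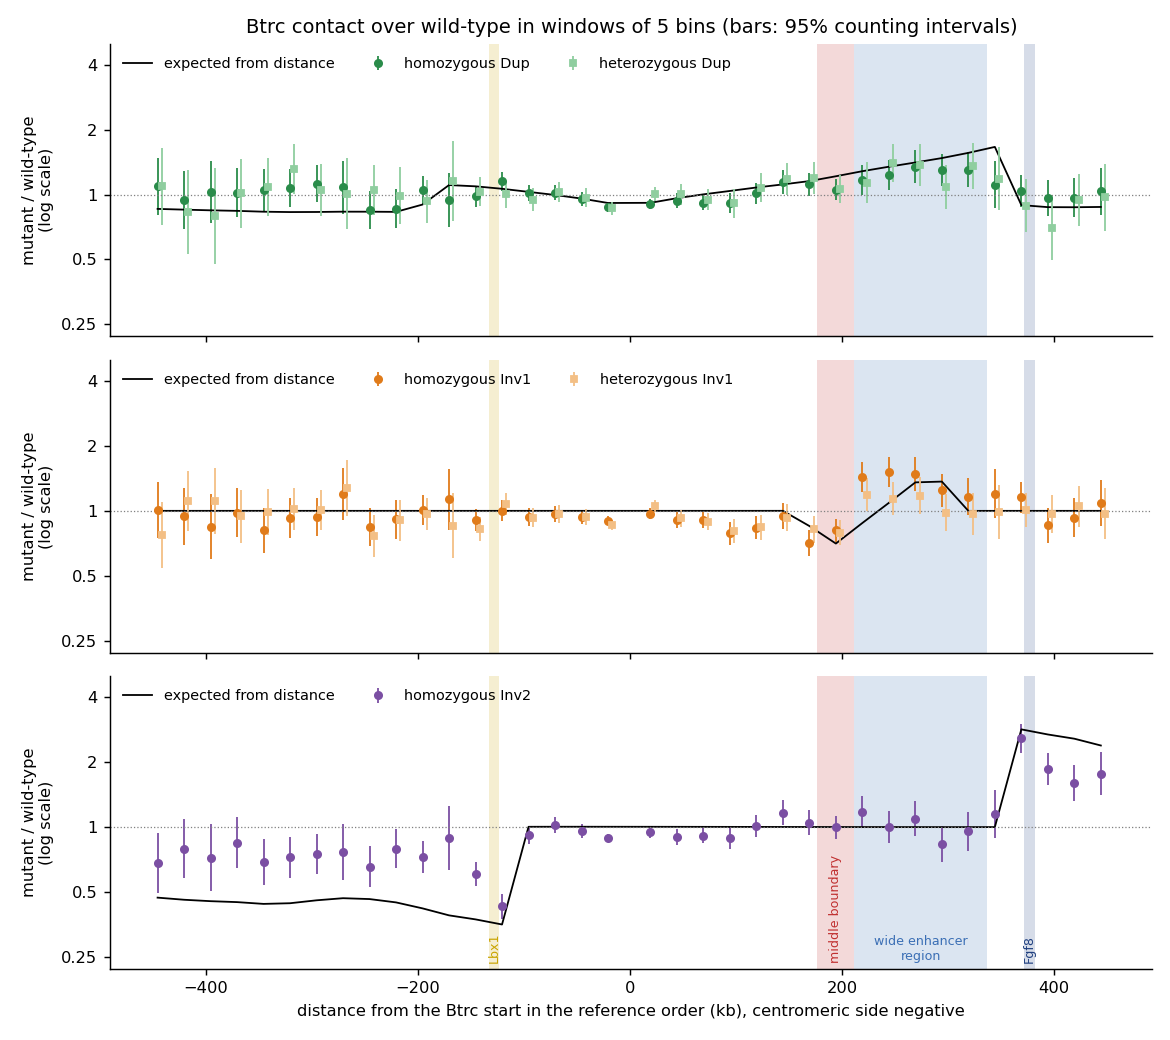
Contact of the Btrc start bin in each mutant over the wild-type (log scale) in windows of 5 bins, against the distance from the Btrc start in the reference order in kb. Points are windows, bars 95% counting intervals and the black line the ratio expected from distance for the homozygous mutant. Over the wide enhancer region Dup and Inv1 rise above 1 and Inv2 stays at it. Inv2 is lowest in the window that holds Lbx1 and stays below 1 beyond it. It rises from the window that holds Fgf8, which begins just past the telomeric Inv2 breakpoint.

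With the 3-bin viewpoint each of the 5 ratios was larger: 1.56 in *Inv1*, 1.42 in *Dup*, 1.08 in *Inv2* (1.03 to 1.13), 1.32 in heterozygous *Dup* and 1.27 in heterozygous *Inv1* (1.22 to 1.34). The order of the homozygous mutants was the same, but the values for *Inv2* and heterozygous *Inv1* passed from intervals that include 1 to ones that do not. This viewpoint had 3340 wild-type read pairs with the region in place of 927.

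The 3 homozygous mutants, which share the G4 label, were also compared directly with one another. *Btrc* had 1.35 times as much contact with the wide enhancer region in *Inv1* as in *Inv2* (1.26 to 1.44) and 1.25 times as much in *Dup* as in *Inv2* (1.18 to 1.33). *Inv1* had 1.07 times the contact of *Dup* over the wide region (1.02 to 1.13) and 1.24 times over the AER enhancer interval (1.14 to 1.34).

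Distance alone gave different expectations for the mutants. For *Dup* it called for a ratio of 1.42, and the measured 1.25 was 0.883 of that (0.817 to 0.955) with 1 bin and 1.00 of it with 3 bins. For *Inv2* it called for 1.00, and the measured value was 0.997 of that (0.916 to 1.09), or 1.08 times with 3 bins (1.03 to 1.13). For *Inv1* it called for 1.14, and the measured value was 1.21 times that (1.11 to 1.31), or 1.37 times with 3 bins. For heterozygous *Dup* the expectation was 1.30 and for heterozygous *Inv1* 1.07, and both measured values lay at them with the 1-bin viewpoint. With 3 bins heterozygous *Inv1* had 1.27 (1.22 to 1.34), above that 1.07. Heterozygous *Dup* had 1.32 (1.25 to 1.39), an interval that holds the 1.30. *Inv1* was the homozygous mutant in which *Btrc* had more enhancer contact than the new distance gives under both viewpoints.

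The excess in *Inv1* was uneven along the enhancer region. Cut into 5 pieces of 25 kb from the centromeric end, the ratios were 1.48, 1.56, 1.36, 1.30 and 1.15. The first 2 pieces, which hold most of the AER enhancer interval, end up farthest from *Btrc* among the inverted pieces, and distance called for 0.917 and 1.14. Measured over expected was 1.61 in the first piece (1.37 to 1.91) and 1.38 in the second (1.17 to 1.61). The third piece, which comes nearest to *Btrc*, and the fourth, which holds the telomeric breakpoint, had 0.962 (0.798 to 1.16) and 1.03 (0.863 to 1.23) times the expectation. With 3 bins these 4 values were 1.79, 1.52, 1.18 and 1.198, so the first 2 pieces stood highest with either viewpoint. The fifth piece lies beyond the telomeric breakpoint and keeps its distance, and its interval of 0.927 to 1.42 includes 1. With 3 bins this unmoved piece had a ratio of 1.26 (1.13 to 1.42), so it too was higher in *Inv1*.

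**Figure D3:**
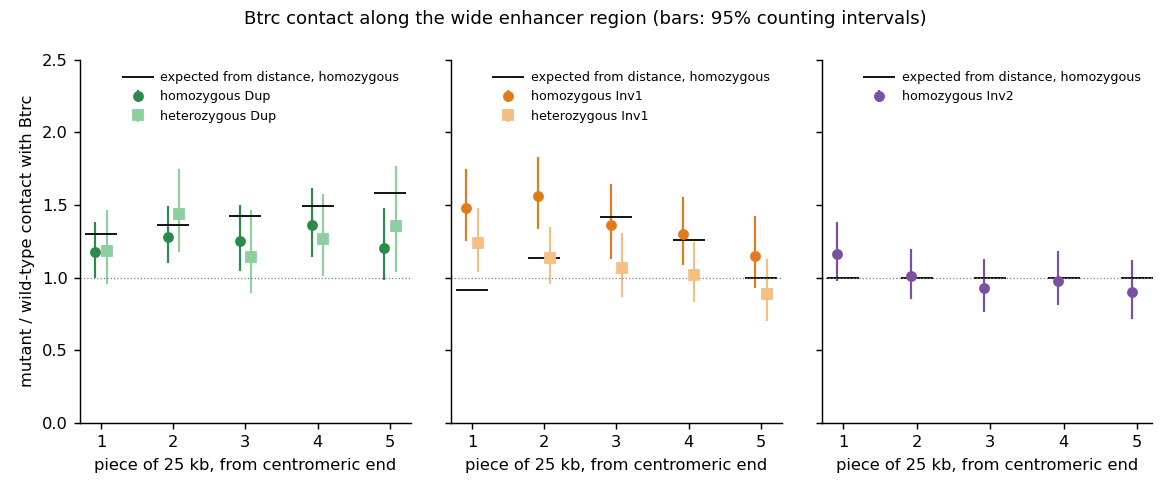
Contact of the Btrc start bin with the 5 pieces of 25 kb of the wide enhancer region, mutant over wild-type (linear axis), numbered from the centromeric end. Points are the homozygous and heterozygous maps with 95% counting intervals, and black lines the ratio expected from distance in the homozygous mutant. In Inv1 the first 2 pieces, at 1.48 and 1.56, lie above their lines of 0.917 and 1.14, whereas in Dup all 5 pieces lie below theirs.

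In *Dup* the 5 pieces ranged from 1.18 to 1.36 and in *Inv2* from 0.898 to 1.17, where every interval included 1. With 3 bins the first 2 pieces of *Inv2* had 1.13 (1.03 to 1.24) and 1.13 (1.03 to 1.23), and the intervals of the other 3 included 1. Heterozygous *Inv1* went from 1.24 (1.04 to 1.48) in the first piece to 0.887 (0.698 to 1.13) in the fifth. The AER enhancer interval itself had ratios of 1.55 in *Inv1* (1.38 to 1.75), 1.22 in *Dup* (1.09 to 1.37), 1.35 in heterozygous *Dup* (1.16 to 1.57), 1.15 in heterozygous *Inv1* (1.01 to 1.31) and 1.06 in *Inv2* (0.934 to 1.205), where 3 bins gave 1.12 (1.05 to 1.202). In *Inv1* its value was 1.45 times that expected from distance (1.29 to 1.64).

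The enhancer ratios were also set against control stretches of the same profile. Control region 2 (45455001 to 45580000) has the length of the wide enhancer region and lies within *Btrc*. Its ratios with the *Btrc* start were between 0.898 (*Inv1*) and 0.990 (heterozygous *Dup*). Relative to it, the wide enhancer region stood at 1.53 in *Inv1* (1.40 to 1.67), 1.34 in *Dup* (1.23 to 1.46), 1.28 in heterozygous *Dup* (1.14 to 1.44), 1.17 in heterozygous *Inv1* (1.06 to 1.30) and 1.07 in *Inv2* (0.976 to 1.18). Relative to control region 1, around *Tlx1* on the centromeric side, it stood at 1.44 in *Inv1* (1.27 to 1.63), 1.33 in *Dup* (1.187 to 1.5004), 1.21 in heterozygous *Dup* (1.03 to 1.43), 1.24 in heterozygous *Inv1* (1.09 to 1.42) and 1.36 in *Inv2* (1.194 to 1.56). Control region 1 moves away from *Btrc* in *Inv2*, and its own ratio there was 0.731, so the *Inv2* value depends on the control taken. The centromeric *Dup* breakpoint falls inside control region 1 (45175001 to 45300000). Part of this control is therefore duplicated in *Dup* and heterozygous *Dup*, as is all of control region 2.

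The *Btrc* start was not among the bins of its domain that gained most. Of the 65 bins of the *Lbx1* TAD, ordered by their ratio with the wide enhancer region from the highest, it held place 48 in *Inv1*, where the median bin had 1.62, and place 54 in *Dup*, where the median was 1.36. In *Inv2* it was at place 64, in heterozygous *Dup* at 34 and in heterozygous *Inv1* at 60. The bins of the domain share the enhancer bins and the maps, so this order is a description.

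Contact with the boundary interval that separates *Btrc* from the enhancers in the wild-type was lower in *Inv1*. Signal per bin was 4.13 in the wild-type, 4.65 in *Dup*, 3.44 in *Inv1*, 4.02 in *Inv2*, 4.80 in heterozygous *Dup* and 3.76 in heterozygous *Inv1*, so both *Inv1* maps were the lowest. The ratio was 0.798 in *Inv1* (0.711 to 0.896), where distance called for 0.705, and 0.812 in heterozygous *Inv1* (0.720 to 0.917), where it called for 0.853. In *Dup* it was 1.02 (0.922 to 1.13), below the 1.22 that distance gave, and in *Inv2* 0.986 (0.882 to 1.10). With 3 bins the *Inv1* value was 0.910 (0.855 to 0.968), that of heterozygous *Inv1* 0.938 (0.879 to 1.001) and that of *Dup* 1.13 (1.06 to 1.191), so the heterozygous interval then included 1 and that of *Dup* did not.

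The last 20 kb of the *Btrc* gene lie just before the *Inv1* breakpoint, and contact of the *Btrc* start with them was also lower in that mutant. The ratio was 0.817 in *Inv1* (0.705 to 0.948) although their distance did not change, and 0.890 with 3 bins (0.827 to 0.959). In *Dup* it was 1.15 (1.01 to 1.31) and in *Inv2* 1.06 (0.920 to 1.22).

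In *Inv2* the neighbours of *Btrc* were exchanged. Contact with *Fgf8*, the AER growth factor, had a signal per bin of 1.73 in the wild-type, 1.39 in *Dup*, 2.48 in *Inv1*, 5.58 in *Inv2*, 1.37 in heterozygous *Dup* and 2.41 in heterozygous *Inv1*. *Inv2* stood apart from the other 5 maps. Its ratio was 3.03 (2.36 to 3.90, 488 read pairs against 69), close to the 2.79 that distance gave, and 2.74 with 3 bins. The telomeric boundary beside *Fgf8* had 2.39 (2.05 to 2.79), and the stretch between *Fbxw4* and *Fgf8* 1.86 (1.60 to 2.17).

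Contact with *Lbx1* went the other way. Its signal per bin was 4.61 in the wild-type, 6.55 in *Dup*, 5.26 in *Inv1*, 2.43 in *Inv2*, 5.57 in heterozygous *Dup* and 5.97 in heterozygous *Inv1*, so *Inv2* was the lowest. Both *Dup* maps keep copy number in this signal, so their values cannot be ranked against the wild-type. The *Inv2* ratio was 0.534 (0.430 to 0.663, 195 read pairs against 170), which is 1.49 times the 0.360 expected from distance (1.196 to 1.84). The centromeric boundary (0.605), control region 1 (0.731) and *Twnk* (0.643), the mitochondrial DNA helicase gene, were lower as well. The value for *Slf2*, a gene of DNA repair by the SMC5/6 complex, was 0.928, with an interval of 0.641 to 1.34.

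At *Oga* and control region 1, which lie beyond the breakpoints of *Inv2*, the changes were smaller than distance gave, unlike at *Fgf8*. *Oga*, the gene of the enzyme that removes O-GlcNAc from proteins, lies telomeric of *Fgf8* and had a ratio of 1.45 (1.13 to 1.86) where distance called for 2.57, a measured over expected of 0.565 (0.440 to 0.724). On the other side, control region 1 was 1.75 times its expectation of 0.416. The domains of the profile shifted in the same sense. The telomeric flank took 16.6% of the *Btrc* profile in *Inv2* against 9.82% in the wild-type, the centromeric flank 11.6% against 14.5% and the *Lbx1* TAD 60.0% against 65.7%. Between 300 and 400 kb, in the reference order, the centromeric over telomeric ratio was 0.259 in *Inv2* and 0.563 in the wild-type.

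In *Dup* and *Inv1*, whether contact of *Btrc* with *Fgf8* was higher than in the wild-type depended on the measure. The ratio was 1.30 in *Dup* (0.981 to 1.71) and 1.26 in *Inv1* (0.963 to 1.66), with intervals that include 1. Relative to control region 2 it was 1.38 in *Dup* (1.05 to 1.83) and 1.41 in *Inv1* (1.07 to 1.85), and in *Dup* it was 1.47 times the value expected from distance (1.11 to 1.94). With 3 bins the ratio was 1.08 in *Dup* (0.935 to 1.25) and 1.21 in *Inv1* (1.06 to 1.39). With *Fgf8* widened by 10 kb on either side it was 0.960 in *Dup* and 0.986 in *Inv1*. In *Dup* it was 0.921 as a share of read pairs and 1.71 on the map as deposited, whereas virtual 4C of the balanced map gave 1.25, so the lower signal per bin printed above for *Dup* belongs to the map with copy number kept. Heterozygous *Dup* had 22 read pairs here, and its interval of 0.586 to 1.53 allows either direction.

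*Lbx1*, which is duplicated together with *Btrc*, had a ratio of 1.29 in *Dup* (1.08 to 1.54), above the 1.07 expected from distance, and the same with 3 bins. It was 1.11 in *Inv1* (0.919 to 1.34), 1.14 in heterozygous *Dup* (0.900 to 1.44) and 1.16 in heterozygous *Inv1* (0.958 to 1.42), with all 3 intervals including 1. With 3 bins the values in *Inv1* (1.14, 1.03 to 1.27) and heterozygous *Inv1* (1.193, 1.07 to 1.33) passed 1.

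**Figure D4:**
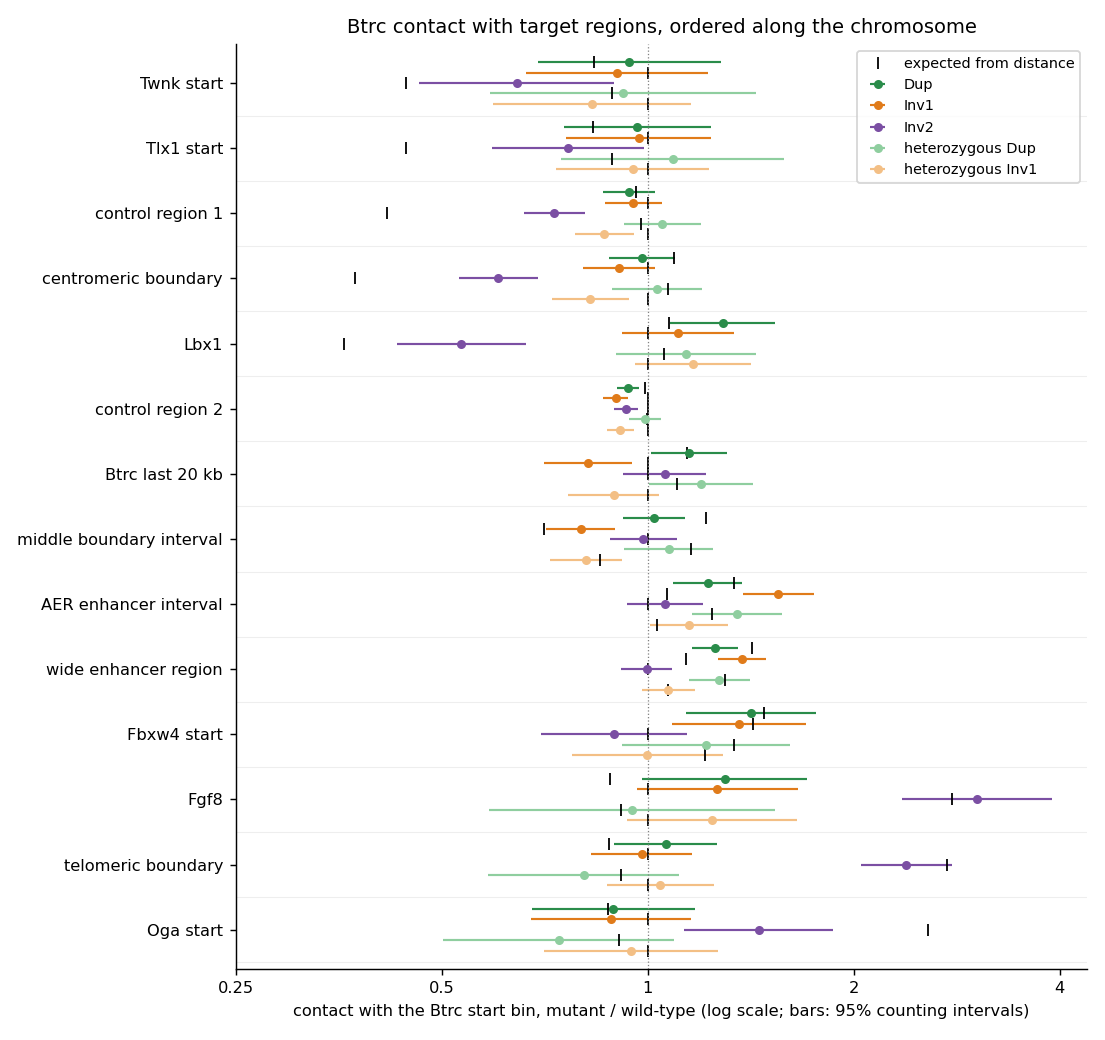
Contact of the Btrc start bin with target regions in each mutant over the wild-type (log scale), ordered along the chromosome from the centromeric side. Points carry 95% counting intervals and black ticks mark the ratio expected from distance. Inv2 lies left of 1 up to Lbx1 and right of 1 from Fgf8 on, and over the enhancers Inv1 and Dup lie right of 1.

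The duplication maps carry extra copies of the *Btrc* promoter, and for the ratios above those maps were first balanced to equal totals per bin. Balancing does not turn them into ratios per copy. The expectation from distance, summed over copies and balanced in the same way, was 1.42 in *Dup* for the wide enhancer region. On the maps as deposited, with copy number kept, the wide enhancer region had 2.83 times the wild-type contact in *Dup* and 2.08 times in heterozygous *Dup*. The number of read pairs with both ends in the duplicated interval, divided by the number with neither end there, gave a mutant over wild-type ratio of 2.30 in *Dup* and 1.69 in heterozygous *Dup*, while it was 0.991 to 0.996 in *Inv1*, *Inv2* and heterozygous *Inv1*. A label of the heterozygous *Dup* library names an inversion while its title names *Dup*, and its read pairs over the interval are the value that bears on this.

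Against their homozygous counterparts the heterozygotes differed. Heterozygous *Inv1* had 0.780 of the *Inv1* contact between *Btrc* and the wide enhancer region (0.728 to 0.836) and 0.741 over the AER enhancer interval (0.671 to 0.818). Heterozygous *Dup* had 1.01 of the *Dup* contact with 1 bin (0.933 to 1.10) and 0.926 with 3 bins (0.885 to 0.968). The midpoint of 1 and the homozygous ratio was 1.186 for *Inv1*, above the 1.07 measured, but 1.28 with 3 bins, where 1.27 was measured. For *Dup* it was 1.13, and 1.27 was measured, or 1.21 and 1.32 with 3 bins. Balancing acts on the mix of both alleles, so for *Dup* this midpoint is not the value that 1 normal and 1 duplicated allele would give. The heterozygous *Dup* map also rests on 1 library.

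Over single bin pairs, changes were counted where the ratio was at least 1.5 in either direction with an interval that excludes 1. In *Inv1*, 7 of 386 *Btrc* bin pairs were higher, beside 3.43% of all bin pairs of the map, and 15 were lower, beside 3.55%. All 7 lay in the wide enhancer region, which holds 25 of the bins, whereas 11 of the lower ones lay in the centromeric flank. With 3 bins as viewpoint 16 of the 25 bins of the wide enhancer region were higher. For these 25 bins alone the share over other viewpoints was not computed, so the counts there have no background. The median bin of the *Lbx1* TAD had a ratio of 1.62 with this region in *Inv1*, above the 1.37 of *Btrc*. The 3-bin viewpoint had 25 of 384 bins higher, beside 3.24% for all 3-bin viewpoints, and 12 lower, beside 3.06%. Of the higher ones, 4 lay in the centromeric and 5 in the telomeric flank besides those 16. The single *Btrc* bin thus had a smaller share of gains than the map and the 3-bin viewpoint a larger one.

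In *Inv2*, 32 of 386 *Btrc* bin pairs were higher, beside 5.25% of the map, and 33 were lower, beside 4.79%. Of the higher ones 26 lay in the telomeric flank and 6 at the telomeric end of the *Fgf8* TAD, outside the wide enhancer region. Of the lower ones 23 lay in the centromeric flank and 9 in the *Lbx1* TAD. In *Dup*, 28 of 384 were higher, beside 6.31%, and 2 were lower, beside 1.46%. Of these 28, 18 lay in the centromeric flank, 7 in the telomeric flank and 3 in the wide enhancer region. Heterozygous *Dup* had 22 of 382 higher, beside 5.11%, and 1 lower, beside 1.26%, which is near the background. Heterozygous *Inv1* had 4 of 386 higher, beside 2.8%, and 12 lower, beside 2.65%.

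With 3 bins the share of higher bins exceeded the background in each mutant. In *Dup*, 97 of 382 were higher (25.4%), beside 10.5%, with 51 of them in the centromeric and 39 in the telomeric flank, and 0 were lower, beside 1.24%. In *Inv2*, 71 of 384 were higher (18.5%), beside 6.23%, of which 65 lay in the telomeric flank, and 31 were lower, beside 5.05%. Heterozygous *Dup* had 47 of 382 higher, beside 6.2%, and 3 lower, beside 1.75%. Heterozygous *Inv1* had 17 of 384 higher, beside 2.44%, and 7 lower, beside 2.73%.

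Over the 19 target regions a fold of 1.2 was used, since these hold more read pairs, and the background is the share over all viewpoint bins and the same regions. In *Inv1*, 3 were higher (the wide enhancer region, the AER enhancer interval inside it and the *Fbxw4* start, also inside it), beside 10.6%. Another 3 were lower (the last 20 kb of *Btrc*, the boundary interval and the *Poll* and *Dpcd* starts inside it), beside 11.7%. With 3 bins none of these 3 passed the fold, and *Poll* and *Dpcd* went from 0.829 (0.707 to 0.971) to 1.05 (0.963 to 1.15). In *Inv2*, 4 were higher, beside 14.9%, and all of them lay from the stretch between *Fbxw4* and *Fgf8* onwards, while 5 were lower, beside 14.4%, and all of them lay from *Lbx1* to *Twnk*. In *Dup*, 4 were higher (*Lbx1*, the wide enhancer region, the AER enhancer interval and the *Fbxw4* start), beside 24.8%, which is near the background, and none was lower, beside 4.78%. Heterozygous *Dup* had 2 higher, beside 17.3%, and none lower, beside 6.59%. Heterozygous *Inv1* had none higher, beside 7.46%, and 3 lower, beside 11.2%. With 3 bins those 3 no longer passed, and the wide enhancer region, the AER enhancer interval and the *Fbxw4* start passed as higher. The share over all viewpoints was not computed for target regions with 3 bins, so these calls have no background.

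*Fbxw4*, an F-box gene like *Btrc*, has its start just beyond the telomeric *Inv1* breakpoint. It thus stays 297 kb from the *Btrc* start in *Inv1*, as in the wild-type. The target is the 15 kb around this start, which straddle that breakpoint, so part of it is inverted. *Btrc* contacted these 15 kb at 1.36 times the wild-type in *Inv1* (1.09 to 1.70, 329 read pairs against 117), where distance called for 1.43. In *Dup* the ratio was 1.42 (1.14 to 1.76), beside an expectation of 1.48, and in *Inv2* 0.893 (0.699 to 1.14). Over these 15 kb both gains were close to what distance gave, but for the start itself the distance in *Inv1* did not change.

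Among the 32 other protein-coding gene starts of the map outside the wide enhancer region, the ones whose ratios with that region over the 5 mutants lay nearest to those of *Btrc* were *Nolc1*, a nucleolar phosphoprotein gene, *Slf2* and *Elovl3*, a fatty acid elongase gene. Their Euclidean distances in log2 ratio were 0.53, 0.55 and 0.61. None of these 3 had the *Inv1* gain of *Btrc*: their *Inv1* ratios were 1.03, 1.00 and 0.999 beside 1.37. *Lbx1*, which shares the domain, was at place 30 with 1.44, and its ratio with the enhancers was 2.60 in *Inv2*, where it was 0.997 for *Btrc*. *Fgf8* was last, with enhancer ratios of 0.672 in *Inv1* and 0.304 in *Inv2*. The 5 ratios share 1 wild-type map, so likeness here is a description.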

How the data were processed

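The authors mapped, filtered and deduplicated the read pairs with HiCUP and Bowtie2 2.4.2 on mm9, kept those with a mapping quality of at least 30, merged the replicates, binned them at 5 kb and deposited contact signal: Knight-Ruiz (KR) balanced with Juicer tools 1.19.02 for the wild-type and the inversions, and normalized with LOIC, which keeps copy number, for the *Dup* maps. Tool versions are those of the submitters' processing notes. Which copy number LOIC was given for heterozygous *Dup* is not stated in these sources. KR gives every bin the same total, so signal is relative within a map. Rearranged alleles were mapped to the reference order. The authors' 3 subtraction maps, which hold their own comparisons, were not used.

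The computations ran in Python 3.11.15 with numpy 2.4.6 and scipy 1.17.1, and plots were drawn with matplotlib 3.10.9. Solving the factor of each bin returned whole read pairs for 100% of the values of each map (within 0.011), from 3350758 (heterozygous *Dup*) to 13101700 (*Dup*) in all. *Dup* maps were balanced to equal bin totals before ratios were taken. For each comparison, a joint factor at every distance, computed outside the rearranged interval, and a total of 1000000 put both maps on one scale. Ratios compare mean signal over the bins of a target, with a 95% interval from the read pairs on the log scale, and shares have Wilson intervals. Intervals cover counting error only, and PCR without molecular identifiers does not give independent molecules. The self-test ran on simulated maps.

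Genotypes came from GEO's labels, and the heterozygous *Dup* library was assigned by its title. Named genes were those of the locus that the study discusses, *Tlx1*, the 3 gene starts most like *Btrc* in their enhancer ratios and the genes at the 5 strongest wild-type bins. In the annotation used (GENCODE on mm9), *Slf2*, *Twnk* and *Oga* are *Fam178a*, *Peo1* and *Mgea5*. The viewpoint, targets and lists were chosen with earlier results of these data known. Alternatives covered the viewpoint, the scaling, target ends, copy number, the margin and the folds.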

Additional observations from a re-analysis of the deposited data

Results flagged for a closer look

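The contact of the *Btrc* start with *Lbx1* moved in opposite directions in a pair of homozygous mutants: it was 1.29 times the wild-type in *Dup* (1.08 to 1.54) and 0.534 times in *Inv2* (0.430 to 0.663). With 1 merged map for each genotype the difference was not tested. Taken directly between both mutant maps, contact was 2.399 times as high in *Dup* as in *Inv2* (2.03 to 2.84, 693 read pairs against 195).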

How the results depend on the processing

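No paired analysis was possible because the deposited maps merge the replicates of each genotype, and for the same reason no replicate could be left out. Of 48 recomputed contact ratios, 32 stayed within the counting interval of the ratio as given and 16 did not, and none that was past a fold of 1.2 with an interval excluding 1 changed direction. Among other values, with 3 bins as viewpoint the *Inv1* ratio of the *Poll* and *Dpcd* starts went from 0.829 to 1.05, that of the interval between *Lbx1* and *Btrc* from 0.943 to 1.03, and its heterozygous value from 0.937 to 1.04. The *Inv2* ratio of control region 2 went from 0.929 to 1.01. Wild-type contact over the mean for its distance went from 1.15 to 0.966 at the centromeric boundary, from 1.05 to 0.990 in control region 2 and from 1.09 to 0.919 in the telomeric flank. In what follows the cause of each shift was not tested, except that a lower or higher fold passes more or fewer items by construction, and a wider margin leaves out signal near the viewpoint.

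With 3 bins as viewpoint, the ratio of *Btrc* with the wide enhancer region was 1.42 in *Dup*, 1.56 in *Inv1* and 1.27 in heterozygous *Inv1*. As a share of read pairs it was 1.39 in *Dup*, 1.52 in *Inv1*, 1.45 in heterozygous *Dup* and 1.24 in heterozygous *Inv1*, where virtual 4C scaling gave 1.18. With the AER enhancer interval as target the *Inv1* ratio was 1.55, and on the LOIC maps as deposited it was 2.83 in *Dup* and 2.08 in heterozygous *Dup*. The ratio with *Fgf8* in *Dup* was 0.921 as a share of read pairs, 0.960 with the target widened by 10 kb and 1.71 on the LOIC map. As a share of read pairs it was 1.73 in *Inv1*, and with the wider target 2.34 in *Inv2*.

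With a margin of 25 kb, the *Lbx1* TAD held 55.5% of the *Btrc* profile in the wild-type, 60.3% in *Dup*, 50.4% in *Inv1*, 49.4% in *Inv2*, 55.3% in heterozygous *Dup* and 53.0% in heterozygous *Inv1*, and the *Fgf8* TAD 9.23%, 11.6%, 12.7%, 11.497%, 11.4% and 10.6%. With 3 bins the *Lbx1* TAD held 64.6%, 67.5%, 58.9%, 58.6%, 62.6% and 61.0% in the same order. The *Fgf8* TAD then held 9.65% in *Dup*, 10.5% in *Inv1*, 9.57% in *Inv2* and 8.95% in heterozygous *Inv1*.

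With 3 bins, and the share over all 3-bin viewpoints in brackets, 97 bin pairs were higher in *Dup* (10.5%) and 0 lower (1.24%). In *Inv1* 25 were higher (3.24%) and in *Inv2* 71 (6.23%). Heterozygous *Dup* had 47 higher (6.2%) and 3 lower (1.75%), and heterozygous *Inv1* 17 higher (2.44%) and 7 lower (2.73%). At a fold of 2, with the share over all bin pairs in brackets, 1 bin pair was lower in *Dup* (0.649%) and 0 were higher in *Inv1* (1.53%). In *Inv2* 16 were lower (2.48%), and in heterozygous *Inv1* 1 was higher (1.28%). At a fold of 1.5, with the share over all viewpoints in brackets, 0 target regions were higher in *Dup* (11.7%) and heterozygous *Dup* (5.27%). In *Inv1* 1 was higher (3.93%) and 0 lower (4.2%), in *Inv2* 3 were lower (5.9%) and in heterozygous *Inv1* 0 were lower (2.81%).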
